A study of Rattus norvegicus with 8 samples.

Results

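Angptl4 and 7 genes tied to fatty acid use through the peroxisome proliferator-activated receptors (PPARs) were examined in rat thymocytes exposed to a glucocorticoid. The members are Ppara, Ppard, Angptl4, Lpl, Cpt1a, Pdk2, Pdk4 and Ucp2. Every array probe carrying one of these gene names was taken, which gave 9 probes for 8 genes, out of 41012 probes and 35561 gene names on the array. The group was selected on the Dex against Control values of these same arrays, so its differences are a description and carry no test.

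The cells were primary thymocytes, the immature lymphocytes of the thymus, from adrenalectomized male Sprague-Dawley rats, so that both groups came from animals without adrenal hormone. Each preparation pooled the thymi of 3 rats and was cultured for 6 hours either without hormone (Control, 4 arrays) or with dexamethasone, a synthetic glucocorticoid, at 100 nM (Dex, 4 arrays). RNA was hybridized to 1-color Agilent Whole Rat Genome arrays. The methods state 3 biological replicates, and which of the arrays these were is not given in the sources used here, so all 8 were used and the p-values measure the spread between arrays.

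PPARs are nuclear receptors that bind fatty acids, pair with retinoid X receptors and switch on genes for taking up, storing and burning fat. Angptl4, a secreted protein made in fasting, is a well known target of both PPARs and the glucocorticoid receptor, and it inactivates lipoprotein lipase (Lpl), the enzyme that frees fatty acids from circulating triglyceride. Cpt1a loads long-chain fatty acids onto carnitine for entry into mitochondria, the Pdk kinases shut down pyruvate dehydrogenase and so spare glucose, and Ucp2 is a carrier of the inner mitochondrial membrane.

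The probes behind the results are 60-base oligonucleotides. Those of Angptl4, which carries the main difference, and of Pdk4 and Ucp2 are shown because the latter pair are split in the genome. The array annotation (build rn3) places the Angptl4 probe at chr7:16262218-16262277. It places the Pdk4 probe at chr4:30283045-30284933 and the Ucp2 probe at chr1:158005921-158006364, spans of 1889 and 444 bases that are longer than the probe itself.
Angptl4: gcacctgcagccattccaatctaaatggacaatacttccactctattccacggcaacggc
Pdk4: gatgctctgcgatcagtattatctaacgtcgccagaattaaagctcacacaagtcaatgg
Ucp2: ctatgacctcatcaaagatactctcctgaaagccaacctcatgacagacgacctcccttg

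RefSeq promoter sequences (build GRCr8, 250 bases before to 50 bases after the start) were found for 6 of the 8 members, all but Ppard and Lpl. The Angptl4 stretch is printed because this gene differs most between the groups. It lies upstream of the start at chr7:15258682-15258931, on the minus strand.
Angptl4 promoter: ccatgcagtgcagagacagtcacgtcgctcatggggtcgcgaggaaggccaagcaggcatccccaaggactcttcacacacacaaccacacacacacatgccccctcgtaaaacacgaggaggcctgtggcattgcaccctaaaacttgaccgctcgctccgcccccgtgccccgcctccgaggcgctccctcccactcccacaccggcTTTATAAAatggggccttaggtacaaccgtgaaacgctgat
Capitals mark TATAAA on the plus strand, at bases -39 to -34 from the start, and its overlapping match on the minus strand, at -41 to -36. This motif was searched after the sequence had been seen, and 14.2% of 33469 RefSeq promoters of the same 300 bases hold it on either strand. The half-site letters of nuclear receptors that bind fatty acids, AGGTCA, and of the glucocorticoid receptor, TGTTCT, were searched on both strands. No window of the 6 members held AGGTCA, which is in 16.2% of all promoters, or TGTTCT, which is in 20.7%. Accordingly none held an AGGTCA pair 1 base apart (0.0538% of promoters) or AGAACA and TGTTCT 3 bases apart (0.0149%).

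Across the array, 319 of 41012 probes (0.778%) passed limma at an adjusted p of 0.05, 231 of them higher in Dex (0.563%) and 88 lower (0.215%). With the replicate number as a block the count was 81. All 4 Dex arrays lay above all 4 Control arrays at 4.6% of probes and below them at 4.51%. The scanner software marked 24911 to 34476 probes of an array as well above background, fewest on Dex 2 (24911), Dex 1 (26474) and Control 1 (28666). No spot was saturated. On the log2 scale the median probe SD between arrays was 0.28 in Control, against 0.50 in Dex. Of the 3 slides, one carried both groups (Control 1 with Dex 3), one the other Control arrays and one the other Dex arrays. The 9 thymocyte markers found on the array, among them Cd4, Cd8a and Cd3e, were well above background on all 8 arrays, although the Cd8b spot of Control 1 was an outlier and left out.

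Angptl4 was far higher in Dex, and of the 8 members it alone passed the threshold in the fit of all 8 arrays without a block. Other settings, given below, changed which members passed. Such counts were fixed in part by the selection itself, and nothing is read from them. Its log2 signal was 6.35, 6.43, 7.13 and 6.62 on Control arrays 1 to 4 and 10.95, 11.18, 10.52 and 10.90 on Dex arrays 1 to 4. The lowest Dex array lay 3.40 log2 units above the highest Control array. The group means were 6.63 ± 0.35 and 10.89 ± 0.27 (SD, n = 4 each), a difference of 4.26 (SE 0.23), or 19.1-fold. With normexp background correction, which adds an offset to every signal, it was 3.33, or 10.1-fold.

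The probe was well above background on all 8 arrays, so the Control level is a measured one. Before normalization its intensity ran from 88.7 to 130 units in Control and from 949 to 3329 units in Dex. Cultures of the same replicate number differed by 4.60, 4.75, 3.40 and 4.28 log2 units for replicates 1 to 4. On the slide that holds both groups, Dex 3 exceeded Control 1 by 4.18.

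**Figure D1:**
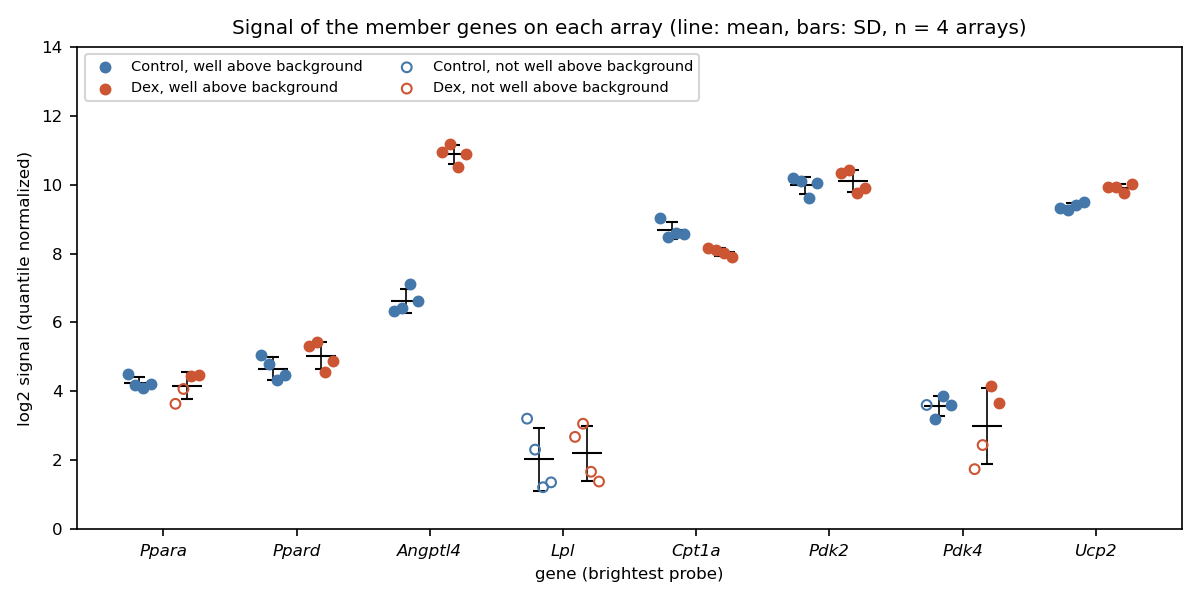
Quantile-normalized log2 signal (vertical axis) of the brightest probe of each member (horizontal axis) on the 4 Control and 4 Dex arrays, with the mean and SD. Open circles mark arrays where the probe was not well above background. Angptl4 is separated by 3.40 log2 units, while Lpl is open on every array.

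Lpl, the lipase that Angptl4 inhibits, was not well above background on any array by either of its probes. The brighter probe, at chr16:22533822-22533881, read 3.21, 2.31, 1.22 and 1.36 in Control and 2.68, 3.06, 1.66 and 1.38 in Dex. The other, printed 10 times per array at chr16:22533292-22533351, read 2.92, 2.08, 1.08 and 1.11 in Control and 1.97, 2.16, 1.28 and 1.53 in Dex. Both groups overlap on both probes, and no fold change is given for a gene without a measured level in either group.

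The receptors themselves gave low and overlapping signals. Ppara, the receptor that drives fatty acid oxidation in liver, read 4.50, 4.20, 4.11 and 4.21 in Control and 3.64, 4.07, 4.46 and 4.46 in Dex (probe at chr7:123841246-123841305). The means were 4.25 ± 0.17 and 4.16 ± 0.39 (SD, n = 4 each), which differ by -0.10 (SE 0.22). With 1 array left out the difference ran from -0.20 (without Dex 3 or Dex 4) to 0.076 (without Dex 1), and it was -0.32 with 75th percentile scaling. The probe was well above background on all 4 Control arrays but on only 2 Dex arrays, and the low readings are those of Dex 1 and Dex 2.

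Ppard, the receptor isotype found in most tissues, was well above background on all 8 arrays (probe at chr20:6541959-6542018). Its signal was 5.04, 4.80, 4.32 and 4.48 in Control and 5.31, 5.42, 4.55 and 4.87 in Dex. The difference of 0.38 (SE 0.26) was positive within every replicate number, from 0.23 to 0.62, and was 0.25 without Dex 2 and 0.13 with normexp background correction. On the shared slide it was -0.49, and the groups overlap.

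Cpt1a was lower in Dex on every array. It read 9.02, 8.49, 8.60 and 8.58 in Control and 8.16, 8.12, 8.01 and 7.90 in Dex (probe at chr1:206065519-206065578). The groups are 0.34 apart at their nearest arrays, and their means of 8.67 ± 0.24 and 8.04 ± 0.12 (SD, n = 4 each) differ by -0.63 (SE 0.17), a ratio of 0.647. The probe is printed 10 times per array, and the SD between its spots was 0.035 to 0.073, below the SD between arrays. Dex 3 lay 1.01 below Control 1 on the shared slide (a difference of -1.01).

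Ucp2 went the other way. It read 9.33, 9.28, 9.41 and 9.51 in Control and 9.95, 9.93, 9.77 and 10.02 in Dex, with a gap of 0.26 between the nearest arrays. The means of 9.38 ± 0.10 and 9.92 ± 0.10 (SD, n = 4 each) differ by 0.54 (SE 0.14), or 1.45-fold. The SD between its 10 spots was 0.045 to 0.089. The difference ran from 0.36 to 0.66 within replicate numbers and was 0.44 on the shared slide. With the main processing and no block, neither Cpt1a nor Ucp2 passed the threshold over all probes. Ucp2 did pass with normexp background correction and with the slide as a random block. The separations are to be read beside the 4.51% and 4.6% of all probes separated in those directions.

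**Figure D2:**
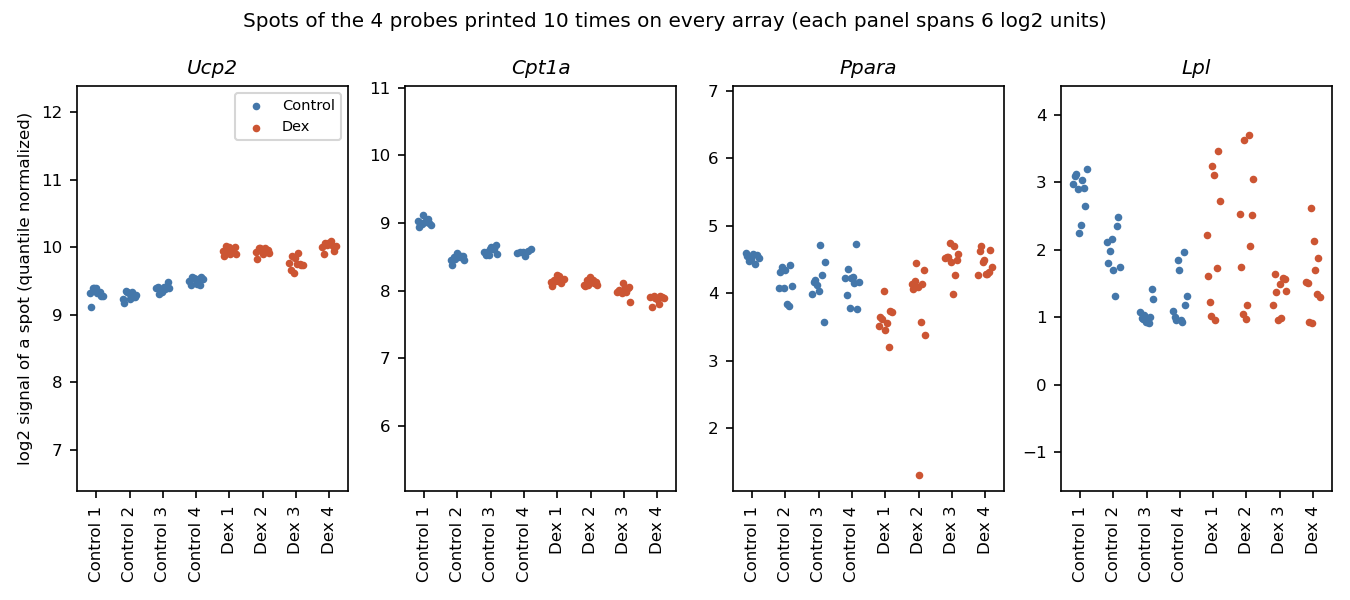
Quantile-normalized log2 signal (vertical axis, each panel spanning 6 units) of single spots of the 4 member probes printed 10 times on each array (horizontal axis), with spots called outliers by the scanner software left out. The SD between spots of an array was at most 0.089 for Ucp2 and 0.073 for Cpt1a, and ran from 0.057 to 0.92 for Ppara and from 0.17 to 1.01 for Lpl.

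The pyruvate dehydrogenase kinases did not separate the groups. Pdk2 read 10.18, 10.09, 9.62 and 10.06 in Control and 10.34, 10.42, 9.77 and 9.92 in Dex (probe at chr10:83724947-83725006). Its means differ by 0.12 (SE 0.21), and on the shared slide by -0.41. With 1 array left out the difference ran from 0.0016 (without Control 3) to 0.24 (without Dex 3). The probe was well above background on all 8 arrays.

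Pdk4, induced by fasting and by glucocorticoids in muscle and liver, was near background here. It read 3.60, 3.19, 3.88 and 3.61 in Control and 1.74, 2.44, 4.14 and 3.65 in Dex. Dex 1 and Dex 2 are the low arrays, and there and on Control 1 the probe was not well above background. The means of 3.57 ± 0.28 and 2.99 ± 1.10 (SD, n = 4 each) differ by -0.58 (SE 0.50), while Dex 3 exceeded Control 1 by 0.54. The difference was -0.16 without Dex 1, -0.96 without Dex 3 and 0.010 with normexp background correction.

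Ppara and Pdk4 were thus both low on Dex 1 and Dex 2, the arrays with the fewest probes above background. The part of array quality in these 2 differences was not tested. Without Control 1, Dex 1 and Dex 2 the differences turned to 0.29 for Ppara and 0.34 for Pdk4, and Pdk2 turned to -0.079, while Angptl4 differed by 3.99, Cpt1a by -0.60 and Ucp2 by 0.50.

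**Figure D3:**
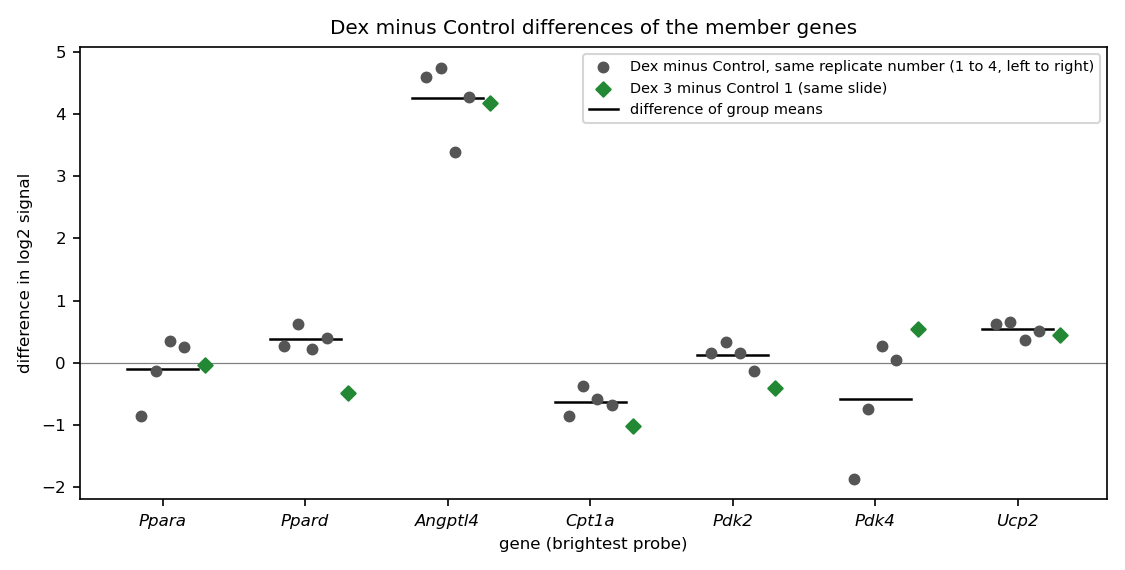
Difference in log2 signal between Dex and Control (vertical axis) for 7 members (horizontal axis), within replicate numbers 1 to 4 (circles), within the shared slide (diamonds) and between group means (lines). Angptl4 lies between 3.40 and 4.75, Cpt1a is negative and Ucp2 positive throughout, and the other members lie on both sides of 0.

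The genes whose 8 array values most resembled those of Angptl4 were sought among 12130 genes with a symbol that were well above background on all Dex arrays. Likeness was the mean absolute difference between the profiles, each centred on its own mean. The nearest were Jam2, an adhesion molecule of cell junctions (0.335), Tsc22d3, the glucocorticoid-induced leucine zipper gene (0.375), Mlana (0.379), the integrin subunit Itgae (0.392) and Ddit4, an inhibitor of mTOR signaling (0.414). They were higher in Dex by 4.23, 3.59, 4.89, 4.02 and 3.73 log2 units, as follows from how they were sought.

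Other genes of the pathway were taken from 8 lists of 123 genes, of which 108 are on the array by symbol. Pdha1 and Pnpla2 rose and none fell by limma, at the same threshold, which is 1.85% of the 108 against 0.778% of all probes. Of the 108, 47 had a difference above 0 and 61 below, with a median of -0.06 against 0.00033 for all probes. All Dex arrays lay above all Control arrays for 4 (3.7%, against 4.6% of all probes) and below for 11 (10.2%, against 4.51%). An unadjusted p under 0.05 was reached by 14 (13.0%), against 10.6% of all probes. The shares compare unlike sets, since a list gene stands for its brightest probe. On all 8 arrays 88 of the 108 were well above background, against 23991 of 41012 probes. With dim probes left out, 2 of 99 list genes and 562 of all probes passed. The same mismatch applies to the list shares below.

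Pdha1, the catalytic alpha subunit of pyruvate dehydrogenase, on which the Pdk kinases act, read 10.76, 10.63, 10.75 and 10.72 in Control and 13.27, 13.39, 13.21 and 12.87 in Dex. The groups lie far apart, with a difference of 2.47 (SE 0.16, limma adjusted p = 0.000655) or 5.53-fold. The other 6 genes of the pyruvate dehydrogenase list did not pass. The beta subunit Pdhb differed by -0.38 (limma adjusted p = 0.391) and the acetyltransferase Dlat by -0.36 (0.667), while the kinase Pdk1 differed by 0.33 (0.820). With 1 array left out, Pdk1 ran from 0.068 (without Dex 2) to 0.57 (without Dex 4), and Dlat was -0.18 without Dex 4.

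Pnpla2, the adipose triglyceride lipase that starts the breakdown of stored fat, read 8.43, 9.25, 9.10 and 9.06 in Control and 11.08, 11.19, 11.46 and 11.26 in Dex. Its difference was 2.29 (SE 0.21, limma adjusted p = 0.00342), or 4.88-fold. Both calls, like that of Angptl4, are lost when the slide is fitted as a fixed block, where only Control 1 and Dex 3 carry the contrast. The differences there were 2.45 for Pdha1 and 3.03 for Pnpla2 (limma adjusted p = 0.254 and 0.112).

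The remaining 13 genes of lipases and lipid droplets did not pass, and the list's median was 0.23. G0s2, an inhibitor of the lipase made by Pnpla2, differed by 0.84 (limma adjusted p = 0.344). Dgat2, which makes triglyceride, was higher on every Dex array, by 0.76 (0.137). The endothelial lipase Lipg differed by -1.11 (0.809), with readings of 1.62 and 1.66 on Dex 1 and Dex 2 and of 6.86 and 5.70 on Dex 3 and Dex 4. It differed by -0.33 without Dex 1 and by -0.35 without Dex 2. Plin2, a coat protein of lipid droplets, is described on the array in words only and so was not matched by symbol. Found in that way after values were seen, its probe differed by 0.087 (limma adjusted p = 0.943). The listed PPAR partner Esrra was found likewise and differed by 0.074 (0.899).

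None of the 27 mitochondrial beta-oxidation genes passed, and their median difference was -0.04. The thiolase Acaa2 differed by -0.67 (limma adjusted p = 0.270), Acat1, which acts on acetoacetyl-CoA, by -0.41 (0.293) and the enoyl-CoA isomerase Eci1 by -0.63 (0.573). Eci1 was -0.37 without Control 1 and -1.88 with the slide as a fixed block. Dex arrays lay below all Control arrays for 4 of the 27 (14.8%, against 4.51% of all probes), Acaa2 and Acat1 among them.

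None of the 17 peroxisomal genes passed either, with a median of -0.25. Acox2, an oxidase of branched chains and bile acid precursors, differed by -1.0 (limma adjusted p = 0.786) and was lowest on Dex 1 and Dex 2, at 3.23 and 1.36. Without Dex 2 it differed by -0.089. Ehhadh, the bifunctional enzyme of this pathway, differed by -0.69 (0.678) and by -0.40 without Control 2, and catalase (Cat) by 0.76 (0.794), which was 0.27 without Control 1 or without Control 2.

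The 16 PPAR partners and the 20 genes of fatty acid uptake and activation each gave no call and a median of -0.04. Nrip1, a corepressor of nuclear receptors, was lower on every Dex array, with a difference of -0.79 (limma adjusted p = 0.142). It read 9.32, 9.10, 9.18 and 9.41 in Control and 8.71, 8.73, 8.19 and 8.22 in Dex. The coactivator Ncoa1 differed by -0.32 (0.548), and Pprc1, a relative of the coactivator PGC-1, by 0.35 (0.646).

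Among the carriers of fatty acids, the acyl-CoA binding protein Dbi differed by -0.45 (limma adjusted p = 0.356), Fabp5 by -0.41 (0.643, and by -0.26 without Control 3) and Fabp4 by 0.72 (0.388). The related angiopoietin-like genes differed by 0.03 for Angptl2 (0.979) and 0.08 for Angptl6 (0.971). Both turned negative under scaling to the 75th percentile. Without Control 1, Dex 1 and Dex 2 they were 0.47 and 1.03, where Angptl6 passed (limma adjusted p = 0.0446) among 4671 probes called. The uncoupling carriers gave a median of -0.48, and 1 of the 4 was well above background on all arrays. Slc25a27 differed by -1.25 (0.716) and by -0.37 without Dex 2. It read 6.02 and 4.25 on Dex 1 and Dex 2, and 8.58 and 8.71 on Dex 3 and Dex 4. Ucp1 differed by -0.34 (0.858) and by 0.12 without Dex 2. Its readings were 3.15 and 2.07 on Dex 1 and Dex 2, and 4.43 and 4.23 on Dex 3 and Dex 4. Slc25a30 differed by -0.61 (0.318). In the fit of all 8 arrays without a block none of these genes passed. Slc25a30 passed with the slide as a random block (limma adjusted p = 0.0445). That fit used an estimated correlation within slides of -0.235 and called 1838 of 41012 probes.

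**Figure D4:**
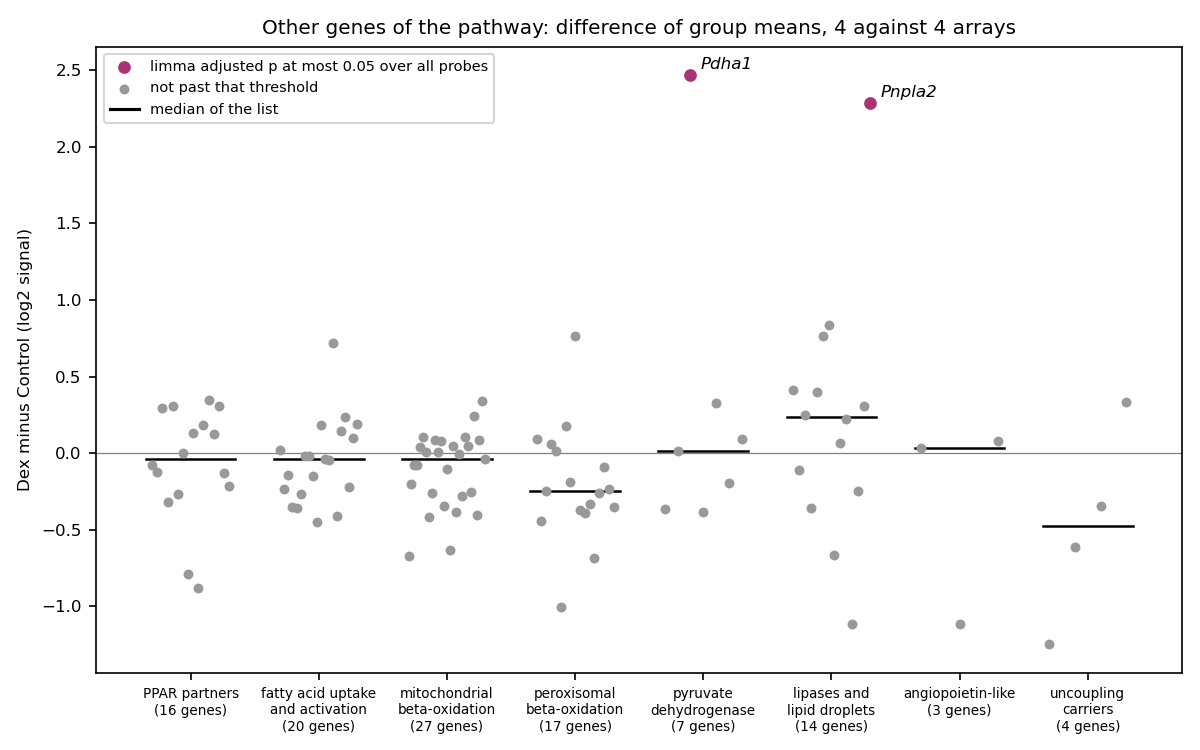
Difference in log2 signal between the Dex and Control means (vertical axis) for 108 genes of 8 pathway lists (horizontal axis), with the median of each list as a line. Pdha1 at 2.47 and Pnpla2 at 2.29 are the 2 genes past the limma threshold, and most others lie near 0.

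Markers of other cells that thymus preparations can hold were read beside Angptl4, since fat cells are a known source of it. Fewer cells of a type and less RNA per cell cannot be told apart in such pooled RNA. The summed linear signal of 8 adipocyte markers was 355 to 523 in Control and 509 to 686 in Dex, which overlap, and 5 of the 8 were well above background on all arrays. Of these markers, Fabp4, Plin1, Cidec and Lipe are also pathway genes, and 6 of the 8 lay above 0, with a median difference of 0.22. Adipoq, the defining hormone of fat cells, differed by -0.58 (limma adjusted p = 0.478) and Cfd, a serine protease made by them, by 1.05 (0.243).

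The summed signal of 8 macrophage markers was 842 to 1128 in Control and 1152 to 1665 in Dex, without overlap, and 7 of the 8 were well above background on all arrays. Of the 8 markers, 4 lay above 0 and 4 below, with Mrc1 at 2.12 (limma adjusted p = 0.087), C1qb at 0.84 (0.330) and Cd14 at -0.77 (0.556). That of 5 endothelial markers was 1825 to 2402 in Control and 1214 to 1670 in Dex, also without overlap. Their members did not move together, since Pecam1 rose by 1.36 (limma adjusted p = 0.0208) while Vwf differed by -0.53 and Kdr by -0.68, and 3 of the 5 lay above 0 with a median of 0.53. The Pecam1 call was lost with the slide as a fixed block, where only Control 1 and Dex 3 carry the contrast. Tek was not well above background on any array. The 7 stromal markers summed to 805 to 1215 in Control and 609 to 1582 in Dex, with 6 of 7 above 0, a median difference of 0.39 and Dcn not well above background on any array. Both erythroid markers, Hbb and Alas2, lay above 0, and their sums overlap, at 248 to 1286 in Control and 246 to 2282 in Dex. The 3 B cell markers summed to 74.3 to 132 in Control and 74.2 to 150.3 in Dex. The markers of thymocytes lay above 0 for 3 and below for 6 of 9, with a median of -0.13. None passed in limma, with Ptcra (-0.61, adjusted p = 0.154) lower and Cd8b (0.52, 0.326) higher on every measured Dex array, Rag1 at -0.59 (0.436) and Dntt at -0.44 (0.598). The part of these cells in the Angptl4, Pdha1 and Pnpla2 differences was not tested.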

How the data were processed

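RNA labeled with Cy3 went onto 1-color Agilent arrays, and the authors deposited spot intensities from Feature Extraction 9.5.3.1, which subtracts background. They also deposited log2 values, quantile normalized and summarized per probe by median polish. These steps were recomputed here from the intensities after control spots and flagged outlier spots had been left out, and the result differed from the deposited log2 table by a median of at most 0.00158. A probe with several spots counts as well above background where a share of at least 0.5 of its spots is flagged so.

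The comparison used limma 3.58.1 in R 4.3.3 (lmFit and eBayes, two-sided, Benjamini-Hochberg over 41012 probes at 0.05, no block). The code was run on simulated arrays with independent noise, the same SD in both groups and no slide or replicate effects. That simulation therefore says nothing on how the fit behaves under such effects or unequal spread. The brightest probe stands for a gene. Named are all members, the pathway genes called, and per list up to 3 further genes with the largest difference that were well above background in the brighter group. Members and lists were chosen with earlier results of these data known. Gene names are those of the array, and 10735 accessions were found in the RefSeq table.

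The labels number replicates 1 to 4 in both groups. After removal of group means, same-numbered arrays correlated at 0.397, 0.129, 0.550 and 0.184. Arrays of different numbers were not compared, so these values cannot tell whether the numbers pair the cultures. By the shared numbers in the labels they may. The p-values are from the fit without a block unless another setting is named beside them, and the paired fit is an alternative. Alternatives were scaling, background correction, the deposited table, blocks for replicate and slide, a filter on dim probes, the methods' signal to noise statistic at their nominal p and fold thresholds, and leaving out arrays. The number of arrays limits the precision.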

Additional observations from a re-analysis of the deposited data

Results flagged for a closer look

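In 68 groups of 4 arrays tested for a single array far from the others, 2 exceeded Dixon's critical value, where chance gives about 1 in 20. For Pdhb in Control the gap was 0.844 of the range, with Control 1 at 12.03 and the nearest array at 11.84. For Dgat2 in Control it was 0.854, with Control 3 at 7.71 and the nearest at 7.93. Neither gene was called with the main processing, and Dgat2 was called with normexp background correction (limma adjusted p = 0.0492) and with the slide as a random block (0.0164).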

How the results depend on the processing

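Over 15 alternatives each, the differences of Angptl4 (3.33 to 4.42), Ucp2 (0.44 to 0.59) and Cpt1a (-1.01 to -0.48) kept their sign. Ucp2 passed beside Angptl4 with normexp and with the slide as a random block, and Cpt1a passed under none of the limma settings. Pdha1 and Pnpla2 were called under 15 of 16. Angptl4 fell to 3.33 with normexp background correction. The slide as a fixed block gave Ppard -0.49, Cpt1a -1.01, Pdk2 -0.41 and Pdk4 0.54, and leaving out the 3 arrays with the fewest probes above background, an alternative chosen after seeing the data, gave Ppara 0.29 and Pdk4 0.34.

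The number of probes called was 166 with 75th percentile scaling, 915 with normexp, 81 with the replicate block, 1 and 1838 with the slide as a fixed or random block, 562 without dim probes, 4671 without the 3 arrays, 2784 by the signal to noise statistic at its own threshold (a nominal p of 0.01 and an absolute fold of 1.2, so that statistic and threshold changed together), and 96 (without Control 4) to 249 (without Dex 3) when 1 array was left out. The share of calls that were higher was 72.4%, against 54.3% with normexp, 92.6% with the replicate block, 60.7% with the random slide block and 47% without the 3 arrays. The replicate block changed no call among pathway genes. Of the 108 pathway genes, those called higher numbered 0 with the fixed slide block and 4 by signal to noise at that threshold. Those called lower numbered 2 with normexp (418 of all probes), 4 with the random slide block (722) and 3 without the 3 arrays (2474). By signal to noise 9 were lower, where 2784 of all probes were called in either direction. These counts are to be read beside the calls over all 41012 probes. Nrip1 passed with normexp, the random slide block and without the 3 arrays, Dgat2 with the first pair of these, Acaa2 and Lipa with the last pair, Acat1 with normexp and Slc25a30 with the random slide block. The random slide block rested on an estimated correlation within slides of -0.235, on slides that mostly hold a single group. No weight is put on calls gained there.

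Signs turned with the fixed slide block for Pprc1 (-0.15), Fabp5 (0.034), Acox2 (1.47), Pdk1 (-0.57), Lipg (1.59), Ucp1 (0.64) and Slc25a27 (0.78), and without the 3 arrays for Acox2 (0.61), Pdk1 (-0.31), Lipg (1.28), Ucp1 (0.51) and Slc25a27 (0.39). Angptl2 turned to -0.10 with 75th percentile scaling and -0.0072 with the random slide block, and Angptl6 to -0.090 and -0.032. With 1 array left out, Angptl2 ran from -0.14 to 0.22, Angptl6 from -0.28 to 0.40, Ucp1 from -0.66 to 0.12, Slc25a27 from -1.85 to -0.37, Acox2 from -1.63 to -0.089, Lipg from -2.08 to -0.33 and Cat from 0.27 to 1.28. Without the 3 arrays Angptl2 was 0.47 and Angptl6 1.03. The causes of these changes were not tested. Signal near background limits Lpl, Pdk4 and Ppara.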
